A study of Danio rerio with 9 samples.

Results

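The regions described here are 10 kb stretches of the zebrafish genome that were joined by called contacts to many other places at once. In each of the 3 deposited lists of interactions, the called pairs in which a bin was either end were counted, keeping pairs whose bins started at most 1 Mb apart. A bin was taken when this number of partners was 10 or more at 0, 1 or 4 days post amputation (dpa). The choice gave 270 bins out of 37912 that were an end of any such pair, or 0.712% of them, and they are called multi-partner anchors below. Joining those that touch each other gave 219 separate regions, of which 179 were a single bin, 31 were 2 bins, 7 were 3 bins and 2 were 4 bins.

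The anchors were chosen by their partner numbers, which are measured values of these same lists. Partner number, and with it side, reach and contact strength, are therefore given as a description, with no test. The threshold cuts through a continuous range. There were 119 bins whose highest number in any list was 9, just outside it, with medians of 9, 6 and 8 partners at 0, 1 and 4 dpa. Just inside it were 75 bins whose highest number was 10, with medians of 10, 6 and 8.

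HiCAR joins open chromatin to the DNA next to it in the nucleus. Cross-linked nuclei are opened by the transposase Tn5, which leaves an adaptor at accessible sites, and the adaptor is ligated to nearby ends made by the restriction enzyme CviQI. The samples were caudal fins from wild type fish of Ekkwill, an outbred strain, at about 6 to 8 months of age, cut at 50% of their length. Fins were collected freshly amputated (0 dpa, the uninjured control) or while regenerating at 1 and 4 dpa, in 3 pools of 10 fins for each time, 9 samples in all. A whole fin holds epidermis, bone-forming cells, fibroblasts, vessels, nerves and blood cells, and the lists do not separate them. A change in the share of a cell type and a change of contacts within it cannot be told apart.

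As background, contacts between distant sites are thought to form largely as cohesin reels in chromatin until it meets a barrier, often a bound CTCF protein. Where one edge is held fixed, that site can meet every position on one side in turn, which appears in contact maps as a line or stripe running from it. Sites with many contacts also occur where promoters of genes that act in development meet several distant enhancers. Fin regeneration is known to begin with wound closure, go on to form a blastema under the new epidermis and then to regrow bone and connective tissue. Which of these arrangements an anchor belongs to is not something the lists record, and no gene was assigned, since no annotation of the build of the files was used here.

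Each list gives 1 value per pair for a whole time point, so nothing measures the spread between the 3 pools. Up to 1 Mb, the lists held 27773 called pairs at 0 dpa, 18129 at 1 dpa and 26278 at 4 dpa. Every pair had a count of at least 12, a count at least 2 times the expected count and an FDR under 0.01. A partner absent from a list has no value there. Whether it lay below those limits or was left out for another reason is not recorded. The 1 dpa list was the shortest, and sequencing depth is unknown, which bears on every partner number at that time.

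Chosen for having many pairs, the multi-partner anchors by that rule took part in a larger share of pairs than their share of bins. They were an end of 2748 pairs (9.89%) at 0 dpa, 2072 (11.4%) at 1 dpa and 2528 (9.62%) at 4 dpa. All 270 had at least 1 partner in every list. At 0 dpa 203 of them had 10 or more, at 1 dpa 94 and at 4 dpa 159. Over all anchor bins of a list these are 0.718%, 0.467% and 0.584%, which the rule fixes. The median number over the 270 was 11 partners at 0 dpa (quartiles 10 and 12, range 3 to 33), 8 at 1 dpa (6 and 10, range 2 to 20) and 10 at 4 dpa (8 and 12, range 1 to 28). The median over all anchor bins was 1 in each list.

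The anchors were spread over all 25 chromosomes but not evenly. On chromosome 22, 21 of 1237 anchor bins (1.70%) had many partners, on chromosome 11, 22 of 1344 (1.64%), and on chromosome 12, 19 of 1402 (1.36%). Close to these were chromosome 20, with 21 of 1569 (1.34%), and chromosome 4, with 15 of 1204 (1.25%). Chromosome 7 had the highest number, 30 of 2409 bins (1.25%). Chromosome 6, with 1722 anchor bins, had 1, and chromosome 1 had 2 of 1652 (0.121%). The lone anchor of chromosome 6, at 28220001–28230000, was itself among those with the most partners, with 20 at both 0 and 1 dpa and 15 at 4 dpa.

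Only some anchors reached 10 partners at every time. There were 63 such bins, with medians of 14, 12 and 13 partners at 0, 1 and 4 dpa. Another 91 reached 10 at 0 dpa alone, with medians of 11, 7 and 7, and 49 at 4 dpa alone, with medians of 6, 6 and 11. At 1 dpa alone there were 7 bins, with medians of 9, 10 and 9. The others reached it at 2 times, 36 of them at 0 and 4 dpa, 13 at 0 and 1 dpa and 11 at 1 and 4 dpa. A bin that was taken for a high number in 1 list tends to be lower in the others for that reason alone, so these medians say little about change.

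**Figure D1:**
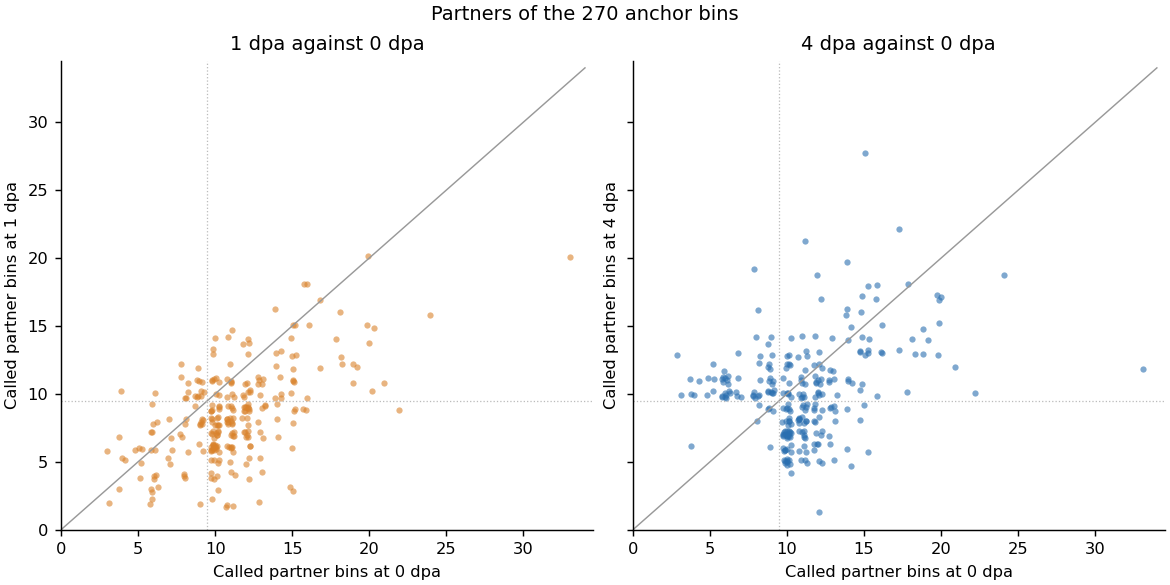
Number of called partner bins of each of the 270 anchors at 1 dpa (left panel) and 4 dpa (right panel) against 0 dpa. Points are bins, shifted slightly at random so that they do not hide each other, the solid line marks equal numbers and the dotted lines lie between 9 and 10. At 1 dpa, 204 bins lay below the line. Bins below both dotted lines were taken for their number in the list that the panel does not show. They are the 49 bins of 4 dpa alone in the left panel and the 7 of 1 dpa alone in the right.

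From 0 to 1 dpa, 49 anchors had more partners, 17 as many and 204 fewer, with a median difference of -3. The direction of this difference depended on how the lists were cut. With the same stricter limit in every list, an FDR of at most 0.0001, 33 anchors had more partners at 1 dpa, 31 as many and 206 fewer. With each list cut to the 18712 pairs of lowest FDR, 134 had more, 40 as many and 96 fewer. The second cut leaves the 1 dpa list whole and holds the other lists to a stricter FDR. From 0 to 4 dpa, 93 had more, 18 as many and 159 fewer, with a median difference of -2, and with lists of equal length 93 had more and 145 fewer. Differences of 5 or more partners were found for 32 anchors upward and 48 downward from 0 to 4 dpa, and for 1 upward and 67 downward from 0 to 1 dpa. Over all anchor bins of either list the same size was met by 0.253% upward and 0.390% downward at 4 dpa, and by 0.0189% and 0.684% at 1 dpa. From 1 to 4 dpa, 57 anchors had 5 or more additional partners and 4 had 5 or more fewer, against 0.586% and 0.0288% of all anchor bins of either list. The anchors were chosen for high partner numbers in these lists, so nothing is read from their higher shares.

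Partners lay mostly on 1 side of the anchor. At 0 dpa, 173 of the 270 anchors (64.1%) had all their partners to the left or all to the right, at 1 dpa 190 (70.4%) and at 4 dpa 182 (67.4%). In every list, 161 anchors were fully sided. The directions were close to balanced. Over the 3 lists together 137 anchors had more partners on the right, 127 on the left and 6 as many on both, where left means toward the chromosome's first base. Nearly even anchors, with at most 60% of partners on the fuller side, numbered 30, 23 and 22.

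Fully sided bins were common at every partner number. They made up 85.0%, 89.2% and 89.0% of bins with 2 partners at 0, 1 and 4 dpa, and 74.2%, 78.8% and 79.4% of those with 3 or 4. Among all bins with 7 to 9 partners in a list, 63.2%, 64.3% and 67.3% were fully sided. Of bins with 10 to 12 partners the shares were 59.9%, 64.1% and 66.7%. Of those with 13 or more they were 56.1% (37 of 66 bins), 76.7% (23 of 30) and 77.2% (44 of 57). The side rarely turned over. From 0 to 4 dpa, 256 anchors had a fuller side at both times, and it was the same side in 247. Among those that switched was the bin at 32090001–32100000 of chromosome 2, with 5 left and 4 right partners at 0 dpa and 2 left and 7 right at 4 dpa.

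**Figure D2:**
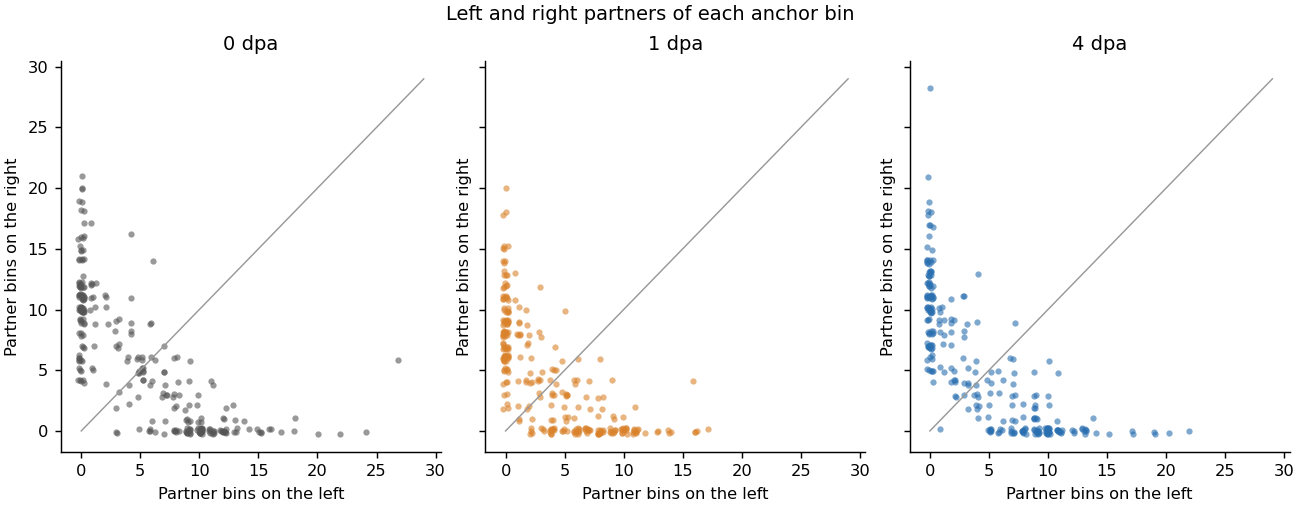
Number of partner bins to the left (horizontal axis) and to the right (vertical axis) of each of the 270 anchors at 0, 1 and 4 dpa. Points are bins, shifted slightly at random, and the line marks equal numbers. Most points hug an axis: 173, 190 and 182 anchors had partners on 1 side alone.

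The reach of an anchor, the distance to its farthest partner up to the 1 Mb limit, had a similar median at all times. It was 210 kb at 0 dpa (quartiles 160 and 280), 200 kb at 1 dpa (150 and 280) and 210 kb at 4 dpa (150 and 280). Reaches over 500 kb were found for 14, 8 and 14 anchors. In 148 of the 270 anchors the reach at 1 dpa equalled that at 0 dpa to the bin, and in 141 the reach at 4 dpa did. At 1 dpa, 28 reached farther than at 0 dpa and 94 less far, by 100 kb or more in 1 and 10 of them. At 4 dpa, 58 reached farther than at 0 dpa and 71 less far, by 100 kb or more in 6 and 5. From 1 to 4 dpa, 90 had a longer reach and 36 a shorter one. An unchanged reach beside a changed partner number means that partners differed within it. Reach was not compared between times for other bins, so its constancy is not shown to be particular to the anchors.

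The partner bins were often next to each other. The longest unbroken run of partner bins had a median of 5, 4 and 5 bins at 0, 1 and 4 dpa and at most 15, 13 and 14. Summed over anchors, 51.2%, 50.1% and 50.9% of partner bins lay in the longest run of their anchor. By the deposited labels, 50.7%, 46.0% and 52.6% of the anchors' pairs belonged to clusters called broad peaks, against 17.3%, 17.2% and 18.4% of other pairs. Singletons made up 4.66%, 5.26% and 4.00% against 16.9%, 19.4% and 16.2%. Having many called pairs in 1 place makes large clusters likely, so this difference goes with the choice of bins. A median of 3 separate clusters met at an anchor in each list, and at most 10. Neighbouring called pairs are not independent contacts. With only summit pairs and singletons kept, 1 bin in the genome had 10 or more partners in any list. A cluster then counts only for the bins of its summit pair, so an anchor can meet more clusters than it has summits.

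Partners that differed between times lay mainly next to a partner of the other list or elsewhere inside its reach. Of 2750 partner bins of the anchors at 4 dpa, 2079 (75.6%) were the same bins as at 0 dpa and 377 (13.7%) were next to one of those. A further 227 (8.26%) lay within the reach at 0 dpa on that side, 53 (1.93%) beyond it and 14 (0.509%) on a side that had none. At 1 dpa, of 2285 partner bins, 1882 (82.4%) were the same as at 0 dpa, 261 (11.4%) were next to one, 116 (5.08%) lay within the reach and 20 (0.875%) beyond it. Seen the other way, 924 of the 3003 partner bins at 0 dpa were not called at 4 dpa. These included 502 next to a 4 dpa partner and 343 elsewhere within the 4 dpa reach. Identical bins were also common among other pairs. Of the pairs at 4 dpa, 73.7% of the anchors' and 56.5% of others were called in the same bins at 0 dpa. For the pairs at 1 dpa these shares were 80.7% and 69.6%. The choice of anchors by their number in any list favours their higher shares.

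**Figure D3:**
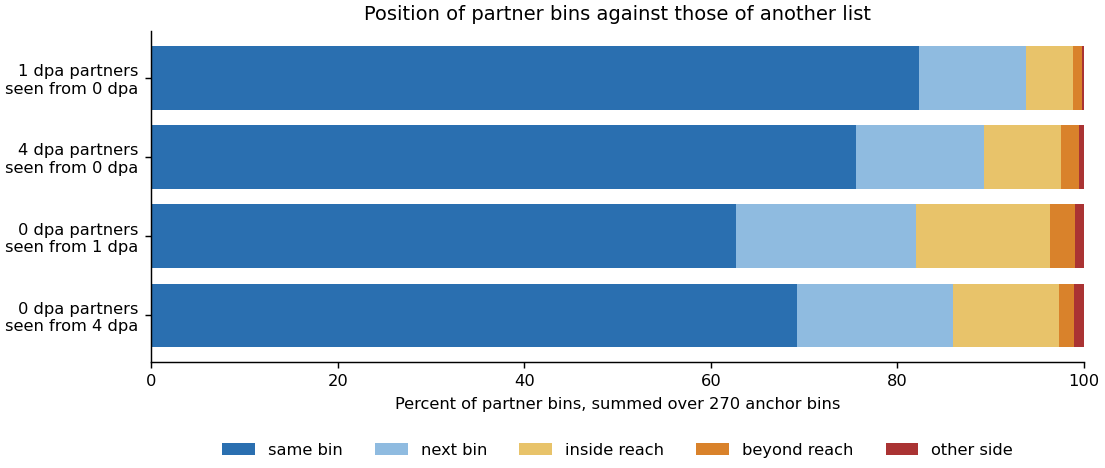
Partner bins of 1 list placed against those of another, summed over the 270 anchors, in percent of the partner bins of the first list. Blue shades are the same bin and the next bin, yellow a bin elsewhere inside the other list's reach on that side, orange a bin beyond it and red a side without partners in the other list. Bins beyond the reach made up 1.93% at 4 dpa seen from 0 dpa.

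Partner bins called in only 1 of 2 lists had a lower median count over expected than those called in both. At 0 dpa, partners also called at 4 dpa had a median count over expected of 4.94 (quartiles 3.81 and 6.71) and a median count of 29. Those not called at 4 dpa had 3.58 (2.95 and 4.46) and 23. Of the partners not called at 1 dpa, 50.4% had an FDR above 0.0001 at 0 dpa, against 17.7% of those called at both times. The 671 partners at 4 dpa not called at 0 dpa had a median of 3.91 (3.18 and 4.88), and 51.4% had an FDR above 0.0001, against 23.1% of the 2079 called in both. Partners at 0 dpa not called at 4 dpa had a median FDR of 1.4e-04, against 1.9e-08 for those called at both times. The highest FDR in the 0 dpa list was 0.00999. Distances differed too. At 0 dpa, partners also called at 4 dpa had a median distance of 140 kb and those not called 100 kb. At 4 dpa, partners also called at 0 dpa had 140 kb and those not called 160 kb. Strength was not compared within distance classes here. How much of the difference in partner number lay at the calling limits was not tested. Over all anchors and lists there were 3873 anchor and partner combinations. All 3 lists held 1587 of them (41.0%), 629 (16.2%) were called at 0 dpa alone, 199 (5.14%) at 1 dpa alone and 467 (12.1%) at 4 dpa alone. The same shares were not computed for other bins, and the 1 dpa list was the shortest. Nothing particular to the anchors is read from them.

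Pairs of the anchors were found again at later times more often than other pairs. Of the 2748 pairs at 0 dpa, 2333 (84.9%, exact binomial 95% interval 83.5 to 86.2, counting error only) had a counterpart at 1 dpa with both ends within 1 bin. At 4 dpa 2435 (88.6%, 87.4 to 89.8) had one. Over all pairs of the 0 dpa list the shares were 70.8% and 77.2%, and over pairs without such an anchor 69.3% and 75.9%. The anchors' pairs were longer, and the size of the gap differed between distance classes. For pairs over 100 and up to 200 kb, 92.0% of the anchors' pairs and 88.2% of others had a 4 dpa counterpart, and for those of at most 50 kb 78.4% and 64.7%. Over 50 and up to 100 kb the shares were closer, 87.2% (84.4 to 89.7) and 85.3%. In the other direction, 94.4% of the anchors' 1 dpa pairs had a 0 dpa counterpart (88.5% of all pairs of that list) and 92.3% a 4 dpa counterpart (86% of all). Of their 4 dpa pairs, 90.6% had a 0 dpa counterpart (79.6% of all) and 85.5% a 1 dpa counterpart (70.9% of all). A densely called neighbourhood offers more bins to match, and anchors could be chosen for their number at the later time, so the choice itself favours a counterpart. With identical bins required, 67.8% of the anchors' pairs and 53.6% of other pairs of the 0 dpa list were called at 4 dpa. The choice by number at the later time bears on these shares too. Over 500 kb, 24 of the anchors' pairs and 361 others were called at 0 dpa. The shares with a 4 dpa counterpart were 70.8% (exact 95% interval 48.9 to 87.4) and 79.5%. Pairs share anchors and clusters, so the intervals given here test no difference.

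Contact strength, the count over the expected count, was no higher at the anchors than elsewhere within the same distance class. Over all distances the median of the anchors' pairs was 4.40, 4.44 and 4.22 at 0, 1 and 4 dpa, above the 3.71, 3.99 and 3.79 of other pairs. Over 100 and up to 200 kb it was 4.66, 4.63 and 4.30 against 4.79, 4.84 and 4.41. At most 50 kb apart it was 2.81, 2.75 and 2.61 against 2.97, 3.06 and 2.76. The expected count itself was higher at the anchors. Over 100 and up to 200 kb its median was 4.91, 4.74 and 5.61, against 4.04, 3.96 and 4.72, and the median counts were 23, 22 and 25 against 20, 19 and 21. The higher median over all distances thus goes with the anchors' longer pairs. Of these, 23.2% spanned over 200 and up to 500 kb at 0 dpa, against 9.60% of other pairs.

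**Figure D4:**
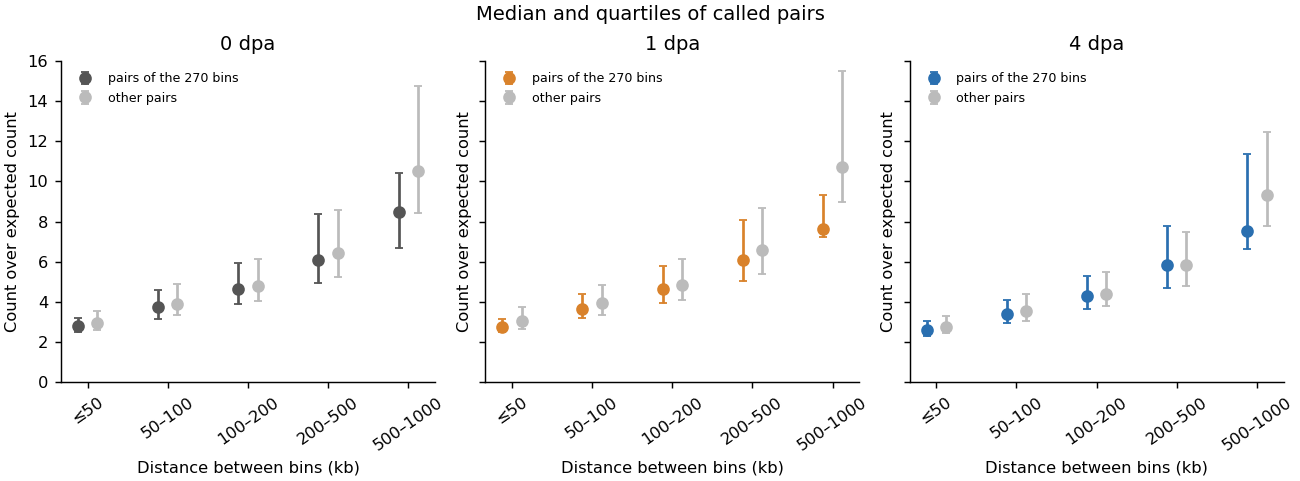
Count over expected count of called pairs by the distance between their bins at 0, 1 and 4 dpa. Points are medians and bars run from the lower to the upper quartile, in colour for pairs of the 270 anchors and in grey for other pairs. In each class and list the anchors' median lies below that of other pairs, such as 4.66 and 4.79 over 100 and up to 200 kb at 0 dpa. Pairs over 500 kb with an anchor numbered 24, 13 and 27.

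Where both lists held a pair in identical bins, its strength could be set side by side. For 1863 such pairs of the anchors the median ratio of count over expected at 4 dpa to that at 0 dpa was 0.903 (quartiles 0.768 and 1.05), against 0.898 for 13416 other pairs. At 1 dpa it was 0.929 for 1673 pairs against 0.946 for 11177. From 0 to 4 dpa the median ratio of the counts was 1.04 and that of the expected counts 1.14, against 1.09 and 1.21 for other pairs. From 0 to 1 dpa these were 0.889 and 0.954, against 0.911 and 0.964. Ratios of 1.5 or more were found in 2.15% of the anchors' pairs at 4 dpa and 1.78% of the others, and ratios of at most 1 over 1.5 in 9.98% and 9.75%. Such pairs had to pass the limits at both times, which narrows the range they can show.

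The strongest partner of an anchor, by count over expected, was usually near the far end of its reach. Among anchors with 10 or more partners in a list, it lay beyond 80% of the reach on its side in 156 of 203 (76.9%) at 0 dpa, 70 of 94 (74.5%) at 1 dpa and 119 of 159 (74.8%) at 4 dpa. Bins with 5 to 9 partners gave 75.7%, 80.2% and 78.0%, so this was not particular to bins with 10 or more. The bins with 5 to 9 partners include anchors that had fewer than 10 in that list. Median count over expected was also higher in each longer distance class of every list, so the measure itself favours far partners. The strongest partner was the same bin at 0 and 4 dpa for 161 anchors and within 1 bin for 198. In all 3 lists it was the same bin for 129 (47.8%). These counts between times were not made for other bins. The strongest partner was itself a multi-partner anchor in 38.9%, 44.7% and 42.1% of cases, against 15.5%, 18.4% and 13.4% for bins with 5 to 9 partners. The choice of bins favours this contrast. Of all partner bins at 0 dpa, 17.0% of those of anchors and 4.7% of those of other bins were anchors.

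Multi-partner anchors were often joined to one another. They were both ends of 255 called pairs at 0 dpa, 213 at 1 dpa and 222 at 4 dpa, so that 17.0%, 18.6% and 16.1% of the anchors' partner bins were anchors themselves. Since a bin with many partners is by that fact more likely to be the partner of another, these shares are a description. In 144 (56.5%), 133 (62.4%) and 137 (61.7%) of these pairs the left end had most of its partners on the right and the right end had most on the left, so that they faced each other across the interval between them. In 1 pair of each list they faced away. The side with most partners was taken over all lists together. Each such pair itself adds a right partner to its left end and a left partner to its right end. A fully sided anchor therefore cannot face away from its own partner. The counting favours facing, so nothing is read from these shares. Pairs between anchors had a median count over expected of 4.96, 4.71 and 4.70 at a median distance of 110, 120 and 120 kb.

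By such pairs, 104 of the 219 regions fell into 35 joined groups. Several are described here by their size, seen before they were chosen. On chromosome 17, 6 regions with 11 anchor bins lay between 37660001 and 37920000, and 15, 12 and 13 of the region pairs were joined at 0, 1 and 4 dpa. On chromosome 11 there were 2 groups, of 6 regions between 8350001 and 8670000 and of 5 regions between 6450001 and 6640000. In the second, all 10 possible region pairs were joined at 0 and 1 dpa and 9 at 4 dpa. On chromosome 7, 6 regions between 56180001 and 56400000 had 14 joined pairs at 0 dpa, 12 at 1 dpa and 9 at 4 dpa. On chromosome 12, 6 regions between 8590001 and 8830000 had 15, 9 and 11.

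Of the 4 regions of most bins, 3 kept close to the same number of partner bins. The 40 kb region at 37500001–37540000 of chromosome 20 had 20, 19 and 19 partner bins outside itself at 0, 1 and 4 dpa, all on the right and up to 250 kb away. The region of equal length at 21090001–21130000 of chromosome 22 had 13, 12 and 15, all on the left. On chromosome 4, 2 regions of 30 kb faced each other. The left one, 16440001–16470000, had 19, 17 and 20 partner bins, 12, 11 and 11 of them on the right. The right one, 16590001–16620000, had 16, 18 and 10, all on the left. They were joined by 9, 7 and 8 called pairs. The pair between 16450001–16460000 and 16610001–16620000 had 76, 70 and 92 counts, or 17.5, 16.4 and 18.7 times the expected count. In the right region the first bin, 16590001–16600000, had 14, 7 and 5 partners, and its contact 140 kb away, the strongest at 1 and 4 dpa, had 28, 33 and 26 counts.

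Among the anchors with the highest minimum over the 3 times, the bin at 35460001–35470000 of chromosome 13 had 17, 17 and 22 partners, all on the left. Its strongest, 360 kb away, was counted 63, 63 and 75 times, which was 17.6, 18.6 and 18.9 times expected. A single partner 640 kb away was called at 4 dpa alone. On chromosome 5, 36320001–36330000 had 24, 16 and 19 partners, all on the left and up to 320 kb away at each time. At 0 dpa they included an unbroken run from 190 to 90 kb, which at 4 dpa was reduced to 190 kb and 130 to 90 kb. The bin at 34590001–34600000 of chromosome 18 had 16, 18 and 18 partners on the right, with the strongest at 310 kb (19.7, 13.8 and 17.6 times expected). The chromosome 6 bin at 28220001 had partners up to 520 kb to the right. Of 31 different partner bins it had in any list, 7 were shared by all 3. The partner 450 kb away, the strongest at 0 and 4 dpa, had 79, 49 and 48 counts. The 4 over 0 dpa ratio of count over expected of that pair was 0.657 (exact 95% interval 0.449 to 0.952, counting error only).

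A joined group on chromosome 7, between 5900001 and 6470000, held 4 regions and 7 anchor bins. Among them were the 4 anchors whose median count over expected, taken as the middle of its 3 values, was highest. Single contacts or single lists were higher elsewhere. The pair of 8350001–8360000 and 8660001–8670000 on chromosome 11 reached 29.1 times expected at 0 dpa. The bin at 5960001–5970000 had 20, 15 and 17 partners, of which 4, 3 and 4 lay on the left, up to 270, 270 and 280 kb away. At 0 dpa its right partners included separate runs 370 to 420 kb and 440 to 510 kb away. On the right it had none called between 110 and 370 kb at any time. Its contact with 6350001–6360000 was counted 67 times at 0 dpa, 38 at 1 dpa and 77 at 4 dpa, which is 22.9 times expected (exact Poisson 95% interval 17.8 to 29.1), 15.0 (10.6 to 20.6) and 25.5 (20.2 to 31.9). Its contact with 6460001–6470000 had 44, 30 and 71 counts, or 16.8 (12.2 to 22.5), 12.5 (8.43 to 17.8) and 26.5 (20.7 to 33.4). The 4 over 0 dpa ratio of the second was 1.58 (1.07 to 2.36), and that of the first 1.12 (0.793 to 1.57). Seen from 6460001–6470000, the median strength of all partners was 8.83, 9.32 and 17.0 over 10, 6 and 9 partners, all on the left. The 8 partners shared between 0 and 4 dpa had a pooled ratio of 1.31. Intervals of pairs picked as extremes are not adjusted for that choice.

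In the 4 anchors with the largest gain in partners from 0 to 4 dpa, the added bins lay mostly nearer than the farthest 0 dpa contact. The bin at 46840001–46850000 of chromosome 9 had 15, 11 and 28 partners, all on the right, and its farthest partner was 580 kb away at each time. Of its 32 different partner bins, 8 were in all lists and 15 at 4 dpa alone, from 110 to 480 kb away. Those 15 had 12 to 26 counts and 3.53 to 7.74 times the expected count. With lists of equal length it had 9, 11 and 23 partners, and at an FDR of at most 0.0001 it had 9, 5 and 21. By cluster summits it had 7, 6 and 10.

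On chromosome 20, 22470001–22480000 had 11, 15 and 21 partners on the right. At 0 dpa they lay in runs of 350 to 370, 390 to 420, 460 to 470 and 660 to 670 kb. At 4 dpa the gaps were filled to a run from 350 to 480 kb, and the runs at 660 to 670 kb were called at all times. Its partner 350 kb away had 18, 15 and 36 counts, and the one 420 kb away 12, 13 and 28. These were picked for their rise. Over the 11 partners called at both 0 and 4 dpa, the median 4 over 0 dpa ratio of count over expected was 1.08. The strongest, 470 kb away, had 41, 38 and 44 counts and is itself an anchor, 22940001–22950000, with 6, 10 and 12 partners of its own. With lists of equal length the first had 8, 15 and 18 partners.

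At 33150001–33160000 of chromosome 10 there were 8, 4 and 19 partners, all on the left. The contact at 250 kb was the strongest in every list, with 45, 49 and 49 counts. Of the 20 partner bins, 12 were called at 4 dpa alone, and 11 of these lay nearer than 260 kb, the reach at 0 dpa. The 12 had 2.44 to 5.54 times the expected count, and by summits the numbers were 3, 2 and 4. On chromosome 23, 32940001–32950000 had 3, 6 and 13 partners on the left. Its strongest, 200 kb away, had 39, 35 and 45 counts. At 0 dpa the called partners were the 3 bins from 200 to 180 kb, and at 4 dpa a run from 210 to 150 kb was joined by bins at 50 to 60, 100 to 110 and 250 to 260 kb.

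The bin at 8550001–8560000 of chromosome 4 had 6, 3 and 11 partners, with additional ones on both sides. It had 2 left and 4 right at 0 dpa, and 6 and 5 at 4 dpa. On chromosome 9, 37140001–37150000 had 6, 2 and 11. At 1 dpa, the bin at 6210001–6220000 of chromosome 21 was the only anchor with at least 5 more partners than at 0 dpa (4, 10 and 6), and by summits it had 2, 2 and 3.

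Among the anchors with the largest losses of partners, some had the same farthest partner at each time. On chromosome 9, 8450001–8460000 had 33 partners at 0 dpa, 27 of them on the left, then 20 and 12. Its reach of 430 kb on the left was the same at each time. The contact at 430 kb had 44, 35 and 30 counts, or 17.9, 15.8 and 12.5 times expected, and the 4 over 0 dpa ratio was 0.698 (0.424 to 1.14). On the right the bins 150, 160 and 170 kb away were called in all lists. Of the 37 partner bins, 15 were called at 0 dpa alone. Between 300 and 120 kb on the left, 13 partners were called at 0 dpa, 5 at 1 dpa and none at 4 dpa. This window was not part of a rule set beforehand. Partners at 4 dpa lay just outside it, from 340 to 310 kb and at 110 kb. With lists of equal length it had 24, 20 and 10 partners.

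The bin at 17460001–17470000 of chromosome 13 had 22, 9 and 10 partners on the left, up to 480 kb at each time. Its strongest, 330 kb away, had 36, 36 and 37 counts. The unbroken run from 400 to 310 kb at 0 dpa was broken up later. On chromosome 20, 15550001–15560000 had 15, 3 and 10 partners. The 3 at 1 dpa were 370, 360 and 150 kb to the left, and the contact at 370 kb had 53, 37 and 44 counts. On chromosome 12, 8790001–8800000 had 15, 3 and 8, with a reach of 210, 190 and 210 kb. The bin at 32070001–32080000 of chromosome 2, with 12, 5 and 1 partners, had no called partner beyond 60 kb later. Its 8 right partners at 0 dpa became 1 and 0, while its left partner 60 kb away had 45, 39 and 40 counts.

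**Figure D5:**
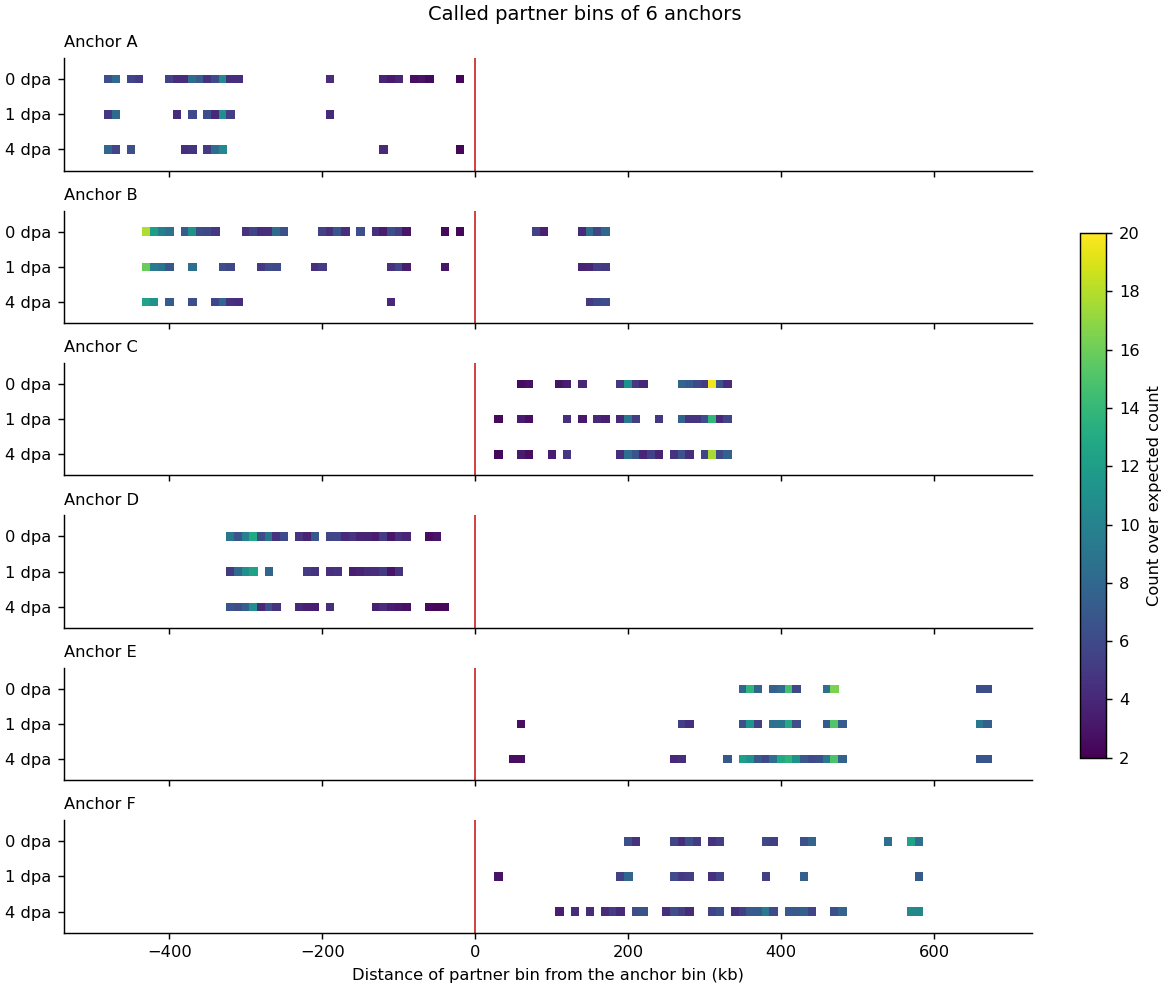
Called partner bins of 6 anchors by their distance from the anchor (red line; negative is left), with a row for each time and colour for count over expected. Anchors A and B, at 17460001 of chromosome 13 and 8450001 of chromosome 9, had fewer partners later. C and D, at 34590001 of chromosome 18 and 36320001 of chromosome 5, had many at all times, and E and F, at 22470001 of chromosome 20 and 46840001 of chromosome 9, had more at 4 dpa. The farthest partner is at 480, 430, 330, 320, 670 and 580 kb in every row.

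Among anchors with 10 or more partners at all times, the most even was at 6520001–6530000 of chromosome 11, inside the group of 5 regions. It had 6 left and 9 right partners at 0 dpa, 6 and 6 at 1 dpa and 7 and 6 at 4 dpa, and 12 of its 16 partner bins were in all lists. Its reach was short, 120, 110 and 110 kb. The bin at 6350001–6360000 of chromosome 7 had 7 left and 5 right partners at 0 dpa and the same at 4 dpa, with 10 of 12 partner bins in all lists. It lies between the other regions of the strong group, so that both arms ended on anchors of that group. At the right edge of the chromosome 11 group, 6630001–6640000 had 10, 14 and 11 partners on the left alone. Its contact with 6450001–6460000, at the other edge of the group, had 152, 127 and 137 counts, or 25.7, 24.1 and 22.4 times expected.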

How the data were processed

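HiCAR contacts were measured in 9 pools of fins, 3 per time point. The submitters' processing notes name BWA as a tool and danRer11 as the build. For the interaction caller, background model and pooling, the sources used here give none. Per the file headers, the deposited lists give for each pair of 10 kb bins a contact count, an expected count (a model score of the authors), an FDR (q-value), a cluster label and size, and a −log10 p of the cluster. The time of a list was taken from its name, which matches the sample titles. Positions are 1-based in danRer11.

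Pairs up to 1 Mb were counted per bin, on the left and right, in Python 3.11.15 with pandas 2.3.3. Bins with 10 or more partners in any list were kept and adjacent ones merged. The members and lists were chosen with earlier results of these data known. Counting and matching were tested on simulated lists with known partners. Intervals at the 95% level, from scipy 1.17.1, are exact Poisson, conditional binomial or binomial and cover counting error only. Expected counts are taken as fixed. A counterpart has both anchors within 1 bin.

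Named bins followed a rule: the 3 with most partners per time, the 6 with the highest minimum, the 4 with the largest difference each way per pair of times, the 4 most sided and 4 most even, the 4 strongest, and the 4 regions of most bins. Ties were broken by position. The joined groups were chosen after their values were seen. A planned naming of genes and a list of fin genes were not used, since the gene table given is of another build. No sequence is shown for the same reason.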

Additional observations from a re-analysis of the deposited data

How the results depend on the processing

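No paired analysis was possible because each list combines the pools of a time point and carries no replicate number, and no replicate could be left out. Of 57 recomputed values, 37 moved and 20 did not, where a count moves by over 1.5 times, a share out of its exact interval and a median reach out of the binomial 95% interval of the median over the anchors. The number of anchors, 270, became 80 at an FDR of at most 0.0001, 150 at a count of at least 20, 130 with lists of equal length, 1 with cluster summits, 590 with 8 or more partners and 133 with 12 or more. For the other values the 270 bins were kept. In that order of the first 4 alternatives, bins with 10 or more partners numbered 61, 116, 63 and 0 at 0 dpa and 46, 86, 65 and 1 at 4 dpa. At 1 dpa they numbered 28, 40 and 0 at the FDR limit, the count limit and with summits, and 94, as reported, with lists of equal length. Bins with 5 or more additional partners at 4 than at 0 dpa numbered 14 at the FDR limit, 21 with lists of equal length and 1 with summits. Those with 5 or more fewer numbered 20, 29, 18 and 0 in the first order. With summits the median reach was 170 kb at 0 dpa and 180 kb at 4 dpa. The share of the anchors' 0 dpa pairs with a 1 dpa counterpart was 81.1% at the FDR limit, 82.1% at the count limit, 88.4% with lists of equal length, 59.0% with summits, 60.9% for identical bins and 91.5% within 2 bins. The 4 dpa share was 86% at the FDR limit, 87.1% with lists of equal length, 61.6% with summits, 67.8% for identical bins and 94.0% within 2 bins. Keeping pairs of at most 500 kb gave 265 anchors. With summits alone, 83 anchors had more and 107 fewer partners at 1 than at 0 dpa. Depth is unknown, so a partner absent from a list may have lain just below its limits.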

Other observations

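Few called pairs over 1 Mb had a multi-partner anchor as an end. Of 648 pairs over 1 Mb at 0 dpa, 1 had a multi-partner anchor as an end, of 583 at 1 dpa 0 had one (which allows a share of up to 0.515%, counting error only), and of 710 at 4 dpa 2 had one. The longest of these spanned 1.6 Mb. Such pairs were not part of the partner numbers in the report. The shares of pairs with an anchor at either end were 0.154% at 0 dpa and 0.282% at 4 dpa. The 0.712% of bins that were anchors is a share of single bins of pairs up to 1 Mb, so it is not a like measure. Other bins were not counted over this distance, so whether the anchors differ from them was not tested.

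Merging anchors up to 1 empty bin apart gave 202 regions in place of 219.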
